A study of Mus musculus with 6 samples.

Results

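The regions described here are the DNase I hypersensitive sites around Ppargc1a in mouse liver, measured after 24 h of fasting and in the fed state. Members were chosen by position: the hotspots of all 6 libraries were merged wherever they shared at least 1 bp, and each merged region that touched chromosome 5 from 51800000 to 52100000 (mm9) was kept. This gave 13 of the 75169 merged regions of the series, and 9 of the 13 were called in every library, as were 37044 regions of the series. The livers came from C57BL/6 mice, 3 libraries from mice fasted for 24 h and 3 from mice fed ad libitum, all collected at 6 in the morning when the lights came on. All were bulk liver, and in bulk tissue a change in the share of cells of a type and a change of accessibility in each cell cannot be told apart. Nothing in the labels ties a replicate to an animal of its own, and the p-values therefore measure a spread between libraries that may be technical in part. No mm9 annotation was used, so neither the position of the gene inside the window nor the liver identity of the samples was checked against marker genes.

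Ppargc1a encodes PGC-1alpha, a coactivator that binds no DNA itself and is recruited by nuclear receptors and other transcription factors. In liver it is known as a fasting-induced partner of HNF4A, FOXO1 and the glucocorticoid receptor at genes of gluconeogenesis, and of PPARA at genes of fatty acid oxidation. Its own transcription is known to be driven by glucagon through cAMP and the factor CREB, and to be held back by insulin. DNase I cuts open chromatin, so a hotspot, a local excess of sequenced ends, marks an accessible element such as a promoter or an enhancer.

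The gene lies on the minus strand of chromosome 5, so higher coordinates are upstream. In the RefSeq annotation of GRCm38.p6 it spans 662 kb, more than the 300 kb of the window, between the coding genes Adgra3 and Dhx15. The RefSeq table holds 1 promoter for Ppargc1a, at GRCm38.p6 chr5:51567676-51567975 on the minus strand, from 250 bases before to 50 after the annotated start. It is shown because CREB is the factor best known at this gene. Other starts that the gene may have are not covered, and whether CREB acts at this one was not examined. Capitals mark the letters CGTCA, which are TGACG, the core of the cAMP response element, on the other strand.
Ppargc1a promoter: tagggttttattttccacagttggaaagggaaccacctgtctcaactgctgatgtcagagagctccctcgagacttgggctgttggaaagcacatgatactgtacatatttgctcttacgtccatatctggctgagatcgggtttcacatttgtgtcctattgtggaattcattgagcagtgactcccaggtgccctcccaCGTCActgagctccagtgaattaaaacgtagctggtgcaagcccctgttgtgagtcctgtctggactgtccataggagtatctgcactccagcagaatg
The match begins 49 bases upstream of the start, and 20.8% of the 32851 promoters of the table hold TGACG on either strand. Searched on both strands, the full element TGACGTCA (in 1.79% of promoters), the forkhead letters TGTTTAC (3.65%), the MEF2 motif (3.69%) and the PPAR-RXR direct repeat (0.0396%) had no match in these 300 bases. These are letters in a window and not bound sites, and they describe these bases only. Any other promoter of the gene was not searched for them. The coordinates of this build and those of mm9 below cannot be set side by side, so whether any hotspot covers this promoter was not determined.

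The 13 sites are called A to N from low to high coordinate, leaving out I, and lie 17.9 kb (A) to 187.2 kb (N) from the window start. Where a library had several hotspots in a site, the tallest one gave the density, which is the authors' maximum tag density in every case. Every maximum was a whole multiple of a step per library (100% within 0.05 step), so a height in tags can be given if 1 step is 1 tag, which the sources used here do not state. On that reading, relative to fed replicate 2, fasted replicate 2 had a depth of 1.90 and fed replicate 3 one of 1.64, and the other libraries 1.02 to 1.32. Intervals on tags cover counting error only.

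**Figure D1:**
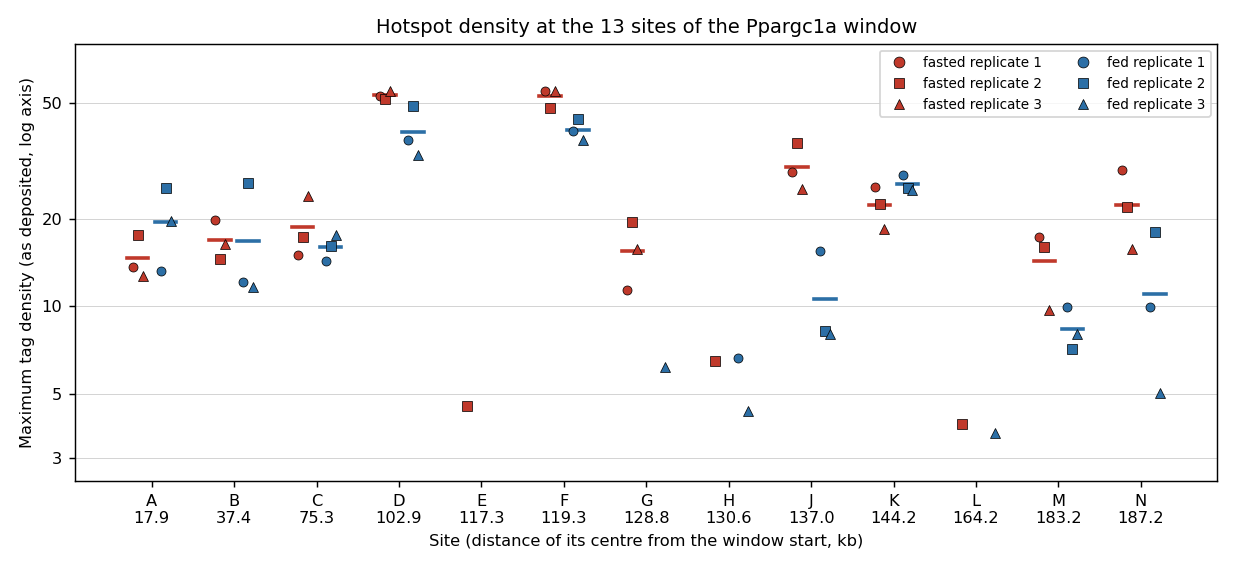
Maximum tag density (as deposited, log axis) at each of the 13 sites, ordered along the window, in 3 fasted libraries (red, left) and 3 fed libraries (blue, right). Bars are means where all 3 libraries of a group called the site, and a missing point is a missing call. At site J the fasted points sit between 25.4 and 36.5, above the fed points at 8.01 to 15.4.

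Fasting went with more open chromatin at a part of these sites. Of the 9 sites called in every library 3 passed the test as higher in fasted livers (J, M and N), and 0 as lower. Over all 37044 regions tested the shares were 7.89% higher and 7.84% lower (limma on log2(density + 1), each library centred on its median over the regions called in all, threshold 0.05 after Benjamini-Hochberg adjustment). Over the 9 sites the log2 fold change had a median of 0.45, against 0.03 over all regions tested, and 7 of the 9 had a positive value, against 54.2% of all regions. The count of 3 became 1 without fasted replicate 1 or without fed replicate 3, and 1 without the 2 deepest libraries together, a setting added after the data were seen. Site J was the site that passed in each of those 3 fits.

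Site J (mm9, chromosome 5, 51936419 to 51937627) had the largest rise of the 9 sites. Its maximum tag density was 28.9, 36.5 and 25.4 in fasted replicates 1 to 3, against 15.4, 8.24 and 8.01 in fed replicates 1 to 3. Every fasted library stood above every fed library, and fed replicate 1 was the highest of the fed ones. Fasted livers averaged 30.3 ± 5.66 and fed livers 10.6 ± 4.23 (SD, n = 3 each). In limma the log2 fold change was 1.55 (SE 0.24, adjusted p = 0.00013), or 2.93-fold on the log2(density + 1) scale. In tags the heights were 102, 185 and 84 in fasted and 42, 22 and 35 in fed libraries. The lowest fasted height has a 95% Poisson interval of 67.0 to 104 tags, and the highest fed height one of 30.3 to 56.8 tags. Tags are not scaled for depth, which was 1.24 in fasted replicate 3 and 1.02 in fed replicate 1, relative to fed replicate 2. A gap between these intervals is therefore not a gap in density beyond counting error. Of the 2921 regions of the genome that rose, 111 had a larger log2 fold change than J. Its mean density over all 6 libraries, 20.4, was at the 43.9th percentile of the regions called in all libraries. J passed in all 18 alternative fits that held it, with log2 fold changes of 1.03 to 1.81.

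Sites M and N lie 2.93 kb apart and 45.0 and 49.1 kb beyond J, on its upstream side. At N (51986717 to 51987594) the density was 29.5, 21.9 and 15.7 in fasted replicates 1 to 3, against 9.93, 17.99 and 5.04 in fed replicates 1 to 3. The groups overlapped, since fed replicate 2 stood above fasted replicate 3. N had a log2 fold change of 1.15 (SE 0.31, limma adjusted p = 0.015), and its adjusted p was 0.083 without fasted replicate 1 and 0.10 without fed replicate 3, where its log2 fold change was 0.76. N passed in 15 of 19 alternative fits. In the fit that set missing values to each library's lowest density, where 5.10% of 52890 regions were called higher, its adjusted p was 0.14. With missing values at the 5th percentile of each library's densities, a setting added after the data were seen, it was 0.040, and 7.25% of these regions were called higher.
At M (51982656 to 51983786) the density was 17.3, 16.0 and 9.69 in fasted replicates 1 to 3, against 9.93, 7.12 and 8.01 in fed replicates 1 to 3. Fasted replicate 3 lay among the fed libraries, and the other 2 fasted libraries lay above them. M had a log2 fold change of 0.76 (SE 0.25, limma adjusted p = 0.041) and was the least stable of the 3: it passed in 9 of 19 alternative fits, and its adjusted p ran from 0.0055 to 0.20. Its adjusted p was 0.062 with no centring, 0.12 with depth as a covariate, and 0.082 and 0.16 with missing values of other regions at the 5th percentile and at the lowest density. It passed without fasted replicate 3 alone among the fits that left out 1 library, and without each of the others its adjusted p was 0.055 to 0.17.

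**Figure D2:**
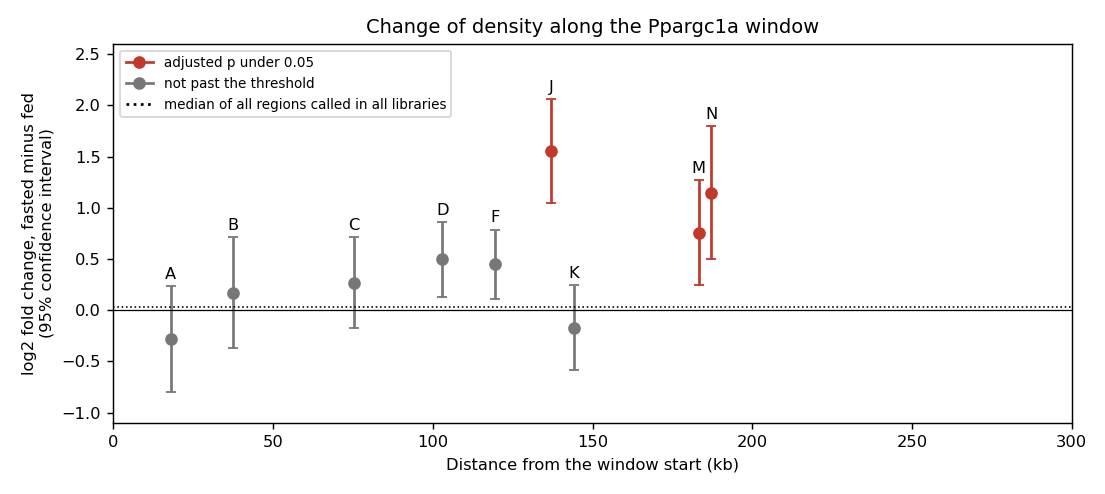
log2 fold change of maximum tag density, fasted minus fed, at the 9 sites called in every library, against distance from the window start (kb). Points are limma estimates with 95% confidence intervals, red where the adjusted p was under 0.05, and the dotted line is the median over all regions tested (0.03). J, M and N lie at 0.76 to 1.55, with K between J and M at -0.17.

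Site G (51928142 to 51929430), 6.99 kb below J, was called in all 3 fasted libraries and in 1 fed library. Its density was 11.3, 19.5 and 15.7 in fasted replicates 1 to 3, against 6.18 in fed replicate 3, with no hotspot in fed replicates 1 and 2. In tags that is 40, 99 and 52 in fasted libraries, against 27 in fed replicate 3. Each fasted value was thus above the only fed value. Over the series 1.90% of merged regions had this pattern of 3 fasted calls and 1 fed call, and 1.90% the opposite one. A missing call is an unknown density and not 0, and the fed libraries without a call were the shallowest of the 6. No p-value of G is given, since with 2 fed values missing it would rest on the values filled in. Where G is counted among higher sites in fits with filled values, at the end, the count rests on them.

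Sites D (51902475 to 51903419) and F (51918598 to 51920024) were the most accessible elements of the window, at the 74.8th and 74.9th percentile of density among all regions called in every library. D had densities of 52.8, 51.7 and 55.1 in fasted replicates 1 to 3, against 37.5, 49.1 and 33.2 in fed replicates 1 to 3. F had 55.3, 48.2 and 55.1 in fasted replicates 1 to 3, against 40.1, 44.2 and 37.3 in fed replicates 1 to 3. At both sites every fasted library stood above every fed library, as at J, so 3 of the 9 sites had fasted libraries above all fed ones after centring, against 16.8% of all regions tested. No site had every fasted library below the fed ones, a pattern of 14.6% of regions. Neither D nor F passed the test: D had a log2 fold change of 0.50 (SE 0.18, limma adjusted p = 0.062) and F one of 0.45 (SE 0.16, adjusted p = 0.069). On average tag density, a second measure of the same hotspots, D had 0.55 (adjusted p = 0.031) and F 0.48 (adjusted p = 0.034), so that 5 of the 9 sites passed as higher there, against 7.60% of all regions.

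The other 4 sites called in every library showed no change past the threshold. Site K (51942891 to 51945534) is the widest of the 13, at 2644 bp, wider than 96.7% of all regions called in every library. Its density was 25.8, 22.5 and 18.5 in fasted replicates 1 to 3, against 28.3, 25.5 and 25.2 in fed replicates 1 to 3. The groups overlapped, and the log2 fold change was -0.17 (95% confidence interval -0.59 to 0.25, limma adjusted p = 0.64).
The maximum describes only the taller end of K. In 5 libraries K consisted of 2 hotspots, and the upstream one reached 12.2, 20.7 and 10.3 in fasted replicates 1 to 3, against 8.46 and 7.87 in fed replicates 1 and 2. Those heights were 47.3%, 92.1% and 55.7% of the downstream hotspot in fasted replicates 1 to 3, and 29.9% and 30.9% in fed replicates 1 and 2. Fed replicate 3 had a single hotspot across both, so this difference inside K, found after the data were seen, was not tested.
At A (51817403 to 51818374) the density was 13.6, 17.6 and 12.7 in fasted replicates 1 to 3, against 13.2, 25.5 and 19.7 in fed replicates 1 to 3, and the log2 fold change was -0.28 (95% confidence interval -0.80 to 0.23). B (51836817 to 51838025) had means of 16.9 ± 2.68 in fasted and 16.8 ± 8.49 in fed livers (SD, n = 3 each), with fed replicate 2 at 26.6 and the other fed libraries at 12.1 and 11.7. C (51874853 to 51875727) had 15.0, 17.4 and 23.9 in fasted replicates 1 to 3, against 14.3, 16.1 and 17.6 in fed replicates 1 to 3, with groups that overlapped. On the log2 scale the 95% confidence interval was -0.37 to 0.72 for B and -0.18 to 0.71 for C. At A, B and C, changes inside the site's own interval are not excluded.

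Sites E, H and L were weak and called in few libraries. E (51917078 to 51917499) was called in fasted replicate 2 alone, at 4.54 or 23 tags. L (51964038 to 51964349) was called at 3.95 in fasted replicate 2 and 3.66 in fed replicate 3, the deepest library of each group. H (51930267 to 51930860) was called at 6.51 in fasted replicate 2, against 6.62 in fed replicate 1 and 4.35 in fed replicate 3. No site of the window was called in all libraries of 1 group and none of the other, a pattern held by 1.17% (fasted only) and 1.57% (fed only) of all merged regions. Without fed replicate 3, G would be called in fasted livers only.

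J was set beside each of the other 8 sites inside every library, which needs no scaling between libraries. J was picked as the site with the largest log2 fold change, which fixes the direction of these differences, so they are a description with no test. On the log2(density + 1) scale J stood above K by 0.16, 0.68 and 0.44 in fasted replicates 1 to 3, and the same difference was -0.83, -1.52 and -1.54 in fed replicates 1 to 3. J was thus the taller of these neighbours in every fasted library and the lower in every fed one. The change of the difference, fasted minus fed, was 1.72 for J against K and 1.10 for J against F. It was smallest against N, at 0.41, and there the fasted and fed differences overlapped, as they did against C.
J made up 11.2%, 14.8% and 10.9% of the summed density of the 9 sites in fasted replicates 1 to 3, against 8.54%, 3.74% and 4.83% in fed replicates 1 to 3. D held 21.7 ± 1.74% in fasted and 21.0 ± 1.15% in fed livers (SD, n = 3 each), less apart than replicates of a group.

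**Figure D3:**
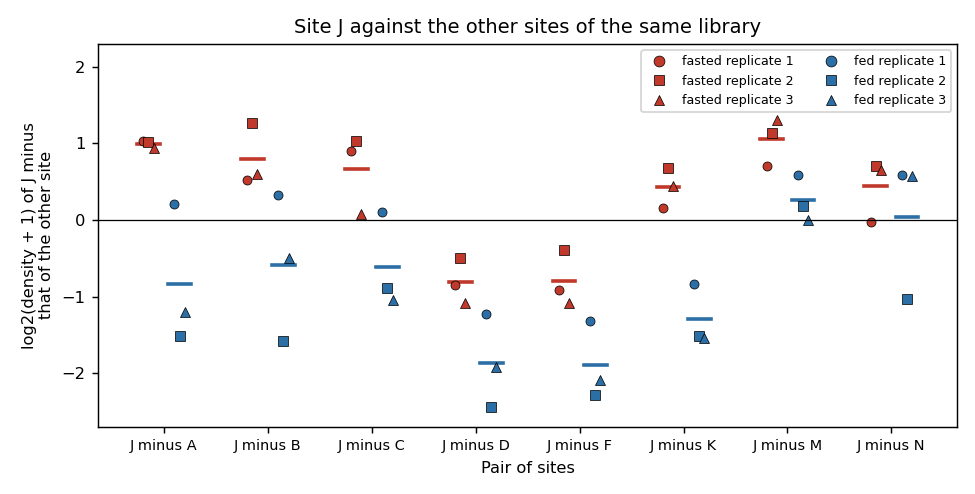
log2(density + 1) of site J minus that of each of the other 8 sites called in every library, in 3 fasted libraries (red, left) and 3 fed libraries (blue, right), with bars at the means. Values above 0 mean that J is the taller site. Against K the fasted points lie at 0.16 to 0.68 and the fed points at -1.54 to -0.83.

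At the 3 risen sites hotspots covered more bases in every fasted library than in any fed one, a readout examined after the data were seen. At J the hotspot covered 959, 1209 and 763 bp in fasted replicates 1 to 3, against 667, 589 and 711 bp in fed replicates 1 to 3. At M it covered 937, 1131 and 900 bp in fasted replicates 1 to 3, against 709, 604 and 668 bp in fed replicates 1 to 3. At N it covered 817, 878 and 811 bp in fasted replicates 1 to 3, against 644, 701 and 595 bp in fed replicates 1 to 3. After centring the groups were apart in this way at these 3 of the 9 sites, against 10.9% of all regions tested. A was narrower in every fasted library than in any fed one only after centring, a pattern of 11.8% of regions. In bp the groups overlapped at A, with 647, 711 and 620 in fasted replicates 1 to 3, against 666, 702 and 972 in fed replicates 1 to 3. In limma on log2 width M passed, at 0.55 (SE 0.10, adjusted p = 0.040), where 1.00% of regions were called wider and 1.20% narrower, while J had 0.52 (adjusted p = 0.085) and N 0.34 (adjusted p = 0.21). The call of M was lost in 8 of 9 alternative fits, among them those with no centring (adjusted p = 0.15) and with depth as a covariate (adjusted p = 0.11). Height was higher in fasted livers at the same sites, and the part of height in the widths was not tested.
At M the added width lay mainly on the upstream side. From the centre of the region its hotspots reached 375, 565 and 384 bp upstream in fasted replicates 1 to 3, against 163, 153 and 175 bp in fed replicates 1 to 3.

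**Figure D4:**
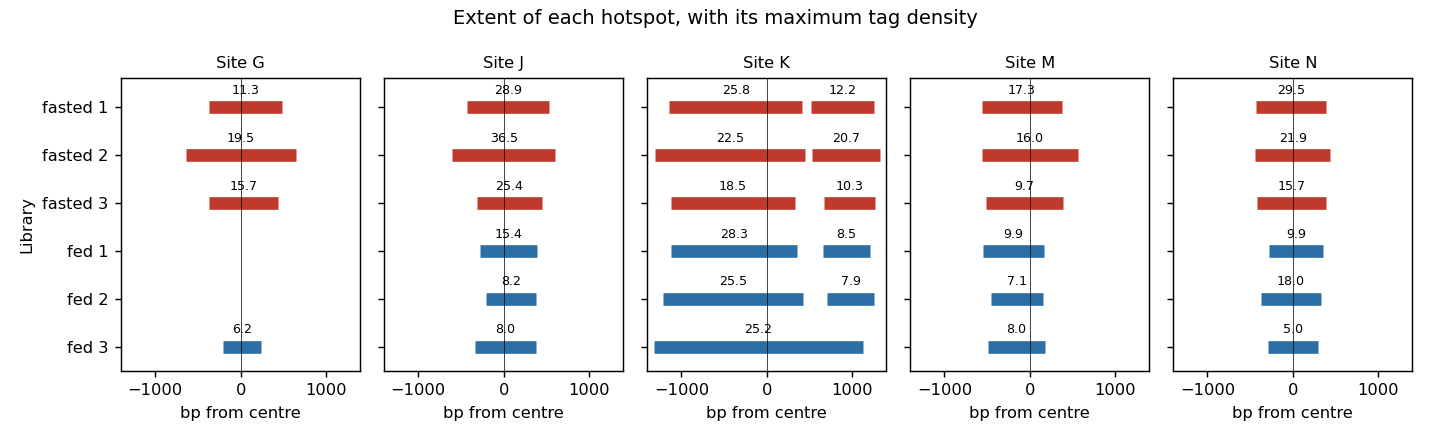
Extent of each deposited hotspot at sites G, J, K, M and N (bp from the centre of the merged region) in the 3 fasted libraries (red, top) and the 3 fed libraries (blue, bottom), with its maximum tag density above it. Fed replicates 1 and 2 have no hotspot at G. K is split into 2 hotspots in 5 libraries and is a single one, at 25.2, in fed replicate 3.

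Summed over the window, 10, 13 and 10 sites were called in fasted replicates 1 to 3, against 10, 9 and 12 in fed replicates 1 to 3. The most sites in each group came from its deepest library. The summed maximum density was 269.5, 280.8 and 248.2 in fasted replicates 1 to 3, against 187.6, 220.3 and 179.9 in fed replicates 1 to 3. Every fasted sum lay above every fed sum, by 70.3 on average. The sums add deposited values with no centring and were not tested. A site without a call adds nothing to a sum, though its density is unknown. Site G, for example, added to all 3 fasted sums and to 1 fed sum.

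Just inside the lower edge of the window lay A, 17.4 kb from it, and just outside lay a hotspot of fed replicate 3 alone (51786519 to 51786924, 3.66). The next region outside, 16.9 kb below the edge (51782007 to 51783116), had 55.6, 35.1 and 49.9 in fasted replicates 1 to 3, against 42.7, 30.7 and 38.4 in fed replicates 1 to 3, a log2 fold change of 0.38 (limma adjusted p = 0.18). Beyond N no hotspot was called in any library over the 112.4 kb to the upper edge. The first one outside, 10.04 kb above the edge (52110041 to 52110657), was weak, at 4.34 and 3.63 in fasted replicates 2 and 3, against 4.41, 4.12 and 2.52 in fed replicates 1 to 3.

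By Pearson correlation of centred log2 density over the 6 libraries, the site of the window most like J was M (r = 0.89), followed by F (0.83), D (0.73) and N (0.71), while A (-0.43) and K (-0.21) were the least like it. Outside the window, among 35849 regions called in every library, leaving out chromosome 18, the 5 most like J had r of 0.996 to 0.998. They lie on chromosome 13 (95019908 to 95021184 and 4785501 to 4786238), chromosome 9 (88606863 to 88608016 and 45860926 to 45861888) and chromosome 4 (101417923 to 101418740). A correlation does not reflect the size of a change, and the log2 fold changes of the 5 ran from 0.48 to 1.39. The first one of chromosome 9 (0.48, limma adjusted p = 0.071) and the second of chromosome 13 (0.50, adjusted p = 0.13) did not pass the threshold. The second one of chromosome 9, with the largest rise, had 67.8, 77.2 and 65.7 in fasted replicates 1 to 3. It had 40.8, 23.2 and 22.0 in fed replicates 1 to 3. Fed replicate 1 was the highest of the fed libraries, as at J, a likeness that choosing by r brings with it. These are descriptions over 6 libraries that share groups and depth. With chromosome 18 included, 441 regions outside the window had r above 0.95.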

How the data were processed

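DNase I hypersensitivity was measured in 6 liver libraries. Per the labels' protocols, the DNase dose was 40 U/ml and DNA of 100 to 500 bp was recovered. CASAVA 1.8 and mm9 are named in the submitters' processing notes. The aligner and caller were not given in the sources used here. Hotspots were called per library. Per the file headers, each hotspot deposited by the authors has a maximum and an average tag density (a coverage signal of unstated scale), a p-value and a z-score. The score and the p-value deposited by the authors were not used.

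Hotspots on chromosomes 1 to 19 and X were merged at 1 bp overlap. Regions called in all 6 libraries were fitted with limma 3.58.1 (R 4.3.3, mean-variance trend) on log2(maximum density + 1), centred per library. The fit was also run on simulated data with the same spread at every region, which does not bear on the calls at sites of low density. A planned exact permutation test of J against other sites is not given, since J was chosen for its fold change. By the rule for named regions every site is accounted for, with values per library for those past the threshold, the 5 densest called in all libraries and those at the edges. The other regions named are the nearest ones outside the window edges and the 5 most correlated with J, leaving out chromosome 18. The members, lists and tests were chosen with earlier results of these data known. Deviations of libraries with the same number correlated at -0.067, -0.030 and -0.167, so no pairing was used. Alternatives were other pseudocounts (0.1 and 10), scalings, measures, filters, merging rules, filled missing values, the replicate block and leaving out libraries. Pathway genes and cell type markers were planned but not analysed here, for want of an mm9 annotation.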

Additional observations from a re-analysis of the deposited data

How the results depend on the processing

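The 3 sites that rose became 5 on average tag density, 0 in the upper 50% of regions by density (which leaves out J, M and N), 1 without the 2 deepest libraries, and 1 to 3 on leaving out each replicate. A count of 3 was not always J, M and N: it was D, J and N without fed replicate 2, J, N and G with missing values at the 5th percentile, and J, F and G with them at the lowest density. In both fits with filled values G entered through its fasted calls and 2 filled fed values, so its passing there is not a result about G. The replicate block kept 3, with site J at an adjusted p of 0.00031 (limma). J was not in the fit that asked a hotspot to cover 50% of its region, where 2 sites passed. Sites lower in fasted livers numbered 0 in all 20 alternatives. In the main density fit limma gave 0 lower sites at an unadjusted p under 0.05 too. On width, A was narrower in fasted livers at an unadjusted limma p of 0.033 (adjusted p = 0.25). Over all regions, the 2921 higher ones became 1946 with no centring and 1401 in the upper 50%, where fewer regions were tested; the 2905 lower ones became 1540 there and 4410 with missing values at the 5th percentile, where more were tested. On leaving out each replicate the log2 fold change ran from -0.021 (without fed replicate 1) to 0.552 for site B, from -0.263 to 0.009 (without fasted replicate 3) for K, and from -0.136 (without fed replicate 2) to 0.678 for J against N, turning sign in these 3 cases. The width count of 1 became 0 with no centring, with depth as a covariate and with the replicate block, and 0 to 1 on leaving out each replicate. Sites called in fasted livers only, 0, became 1 at 50% coverage and 0 to 1 on leaving out each replicate; that site is G, without fed replicate 3. The causes were not tested. In the window hotspots covered 9953, 13058 and 9343 bp in fasted replicates 1 to 3, against 8460, 8808 and 10201 bp in fed replicates 1 to 3. These groups overlapped. The window's covered length, 1628 bp more in fasted livers on average, was 492 to 2349 bp more on leaving out each replicate, lowest without fasted replicate 2. Its number of called sites, 0.67 more, ran from -0.33 without fasted replicate 2, turning sign, through 0 without fed replicate 2, to 1.5 without fed replicate 3. The summed density stayed higher in fasted livers, by 62.2 to 82.5. Depth as a covariate, the 5th percentile, the fit without the 2 deepest libraries and the widths were added with the data in view. The hotspots of E, H and L, at 16 to 33 tags, carry a large counting error, and a missing call gives no upper limit on density.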
